A study of Homo sapiens with 16 samples.

Results

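MYC, its obligate partner MAX and 6 antagonists that compete for MAX or for the same DNA sites (MNT, MXD1, MXD3, MXD4, MXI1 and MGA) were measured by RNA sequencing in HT55 and SW948 colorectal cancer cells given itraconazole or DMSO. These 8 genes were taken by symbol and were 8 of the 54127 Ensembl gene identifiers in the count files. All 8 are protein coding, and all 8 passed the filter on low counts in every comparison.

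MYC is a basic helix-loop-helix leucine zipper transcription factor that binds DNA only as a dimer with MAX, and MYC:MAX dimers at E-box sequences recruit histone acetyltransferases and raise transcription of growth genes. MNT and the MXD proteins (MXD1, MXD3, MXD4 and MXI1, also called MXD2) also dimerise with MAX, occupy the same E-boxes and recruit the SIN3 and histone deacetylase corepressors. MGA pairs with MAX too and belongs to the PRC1.6 Polycomb complex. In the intestine, MYC is a well known target of the Wnt pathway, and MXD1 and MXI1 are associated with differentiation and growth arrest.

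HT55 and SW948 are established human colorectal cancer lines and were kept as adherent cultures in serum. Itraconazole is a triazole antifungal. It was given at 5 µM, and the controls received the solvent DMSO without it. RNA was taken after 6 days in all groups. There were 4 libraries in each of the 4 groups (HT55 DMSO, HT55 itraconazole, SW948 DMSO and SW948 itraconazole). Each line represents 1 tumour, and the study's methods describe biological quadruplicates without saying what made each one separate, so p-values measure the spread between these libraries.

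Gene counts per library ran from 8269406 to 11110814. In every group 8 of 8 colorectal epithelium markers were at 1 CPM or more, with a summed level of 6041 to 10240 CPM over all libraries, and the matched blood cell and endothelial markers were all under 1 CPM on average. Fibroblast or muscle markers summed to 1.54 to 4.73 CPM in the DMSO libraries, 2.38 to 3.66 in HT55 itraconazole and 11.0 to 12.9 in SW948 itraconazole. COL3A1 had no count in any group. Both the epithelial and the fibroblast sums were higher in the treated than in the DMSO libraries of either line, and their part in the results was not tested. In SW948 EPCAM, KRT8 and KRT18 carried the epithelial sum, while the mean of CDX2 was 203 CPM with DMSO and 112 with itraconazole, and that of VIL1 483 and 318. The fibroblast sum there was mostly COL1A1 (3.17 and 10.1 CPM). The library labelled HT55 itraconazole replicate 3 lay nearer to the DMSO libraries than the other treated HT55 libraries (second principal component 15.4, against 31.1 to 40.8). SW948 itraconazole replicate 1 was likewise the treated library nearest to its controls (18.7, against 28.4 to 40.1). Levels are CPM, counts per 1000000 gene counts after TMM scaling, and are compared between genes only after division by the exon length of the gene. With plain library totals in place of TMM, the median log2 fold change over all genes moved from -0.02 to -0.18 in HT55 and from -0.03 to -0.35 in SW948, so every change below is relative to the bulk of genes.

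The sequence that the dimers of this network share is the canonical E-box CACGTG, which reads the same on both strands. RefSeq promoters (GRCh38.p14, 250 bases before to 50 after each start) were available for 7 of the 8 genes. CACGTG was found in the promoters of MNT and MXD4, 2 of 7 genes, against 8.77% of all 27305 genes with a promoter in the table (7.26% of 35116 promoters). These letters were not in the windows of MAX, MXD1, MXD3, MXI1 or MGA. The stretches around the E-box are shown for both antagonists and, for comparison, for those of the MYC-activated genes with the largest falls in either line (ODC1, NOP56, MRTO4 and SLC19A1) that hold one, with CACGTG in capitals and the strand of the gene read 5′ to 3′.
MNT, chr17:2401221-2401280, minus strand: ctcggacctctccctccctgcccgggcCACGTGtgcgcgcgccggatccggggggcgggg
MXD4, chr4:2262315-2262359, minus strand: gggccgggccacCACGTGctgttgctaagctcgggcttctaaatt
ODC1, chr2:10448009-10448068, minus strand: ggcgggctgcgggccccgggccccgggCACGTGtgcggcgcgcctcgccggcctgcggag
ODC1, chr2:10447975-10448034, minus strand: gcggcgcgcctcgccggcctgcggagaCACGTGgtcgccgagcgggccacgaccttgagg
MRTO4, chr1:19251792-19251851, plus strand: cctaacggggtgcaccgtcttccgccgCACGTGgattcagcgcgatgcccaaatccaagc
SLC19A1, chr21:45541797-45541841, minus strand: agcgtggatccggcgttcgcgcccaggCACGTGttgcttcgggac
The E-box began 193 bases before the start in MNT and 238 bases before it in MXD4, whereas ODC1 held a pair, 1 before and 1 after its start. A match is a description of the sequence and not evidence that a factor was bound.

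After itraconazole, MXI1, MNT and MXD1 rose in both lines, MXD4 rose in HT55, MGA fell in SW948 and MXD3 fell in HT55. MYC and MAX did not pass the test in either line. By edgeR's quasi-likelihood test with Benjamini-Hochberg adjustment, 5 of the 8 genes passed in HT55 (4 rose and 1 fell), where 54.0% of the 12133 genes tested passed (27.5% rose and 26.5% fell). In SW948 4 of the 8 passed (3 rose and 1 fell), where 80.2% of 12505 genes passed (38.9% rose and 41.3% fell). MNT, MXD1, MXI1 and MGA also passed in SW948 without itraconazole replicate 1, at 1.72, 1.34, 1.71 and -1.25 on the log2 scale. The share of the network that changed was therefore near that of all genes in HT55 and below it in SW948, and the description that follows concerns which members moved and by how much. The median log2 fold change of the 8 genes was 0.38 in HT55 and 0.06 in SW948, against -0.02 and -0.03 over all genes. Lower RNA per cell and fewer cells expressing a gene cannot be told apart in these bulk libraries.

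**Figure D1:**
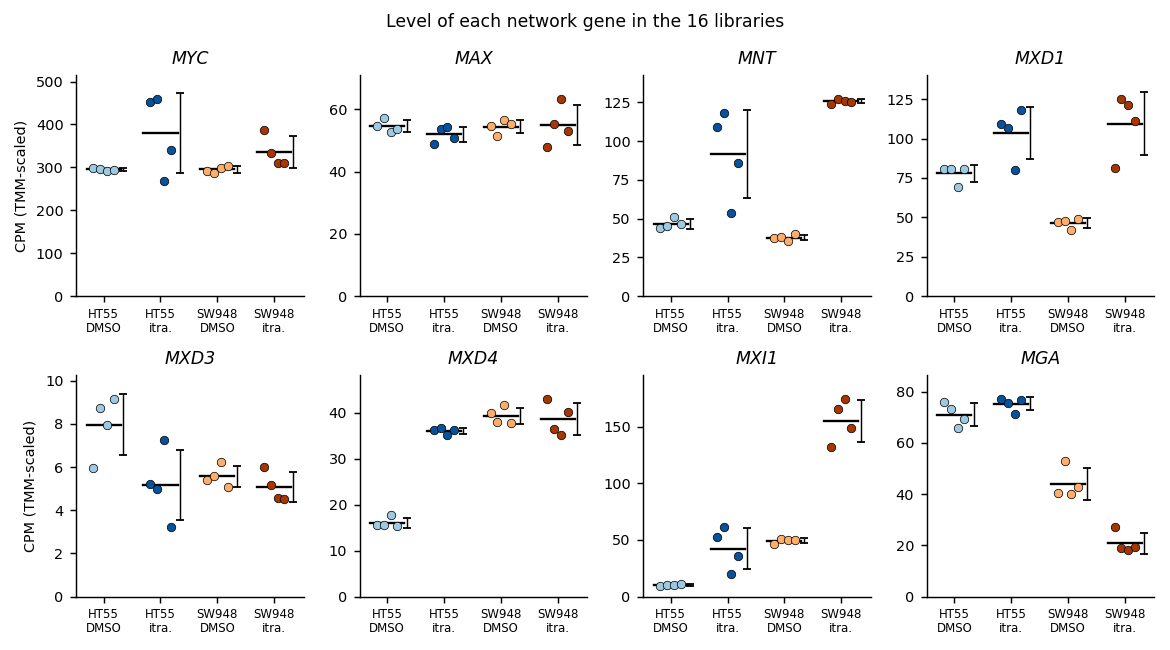
Level of each of the 8 genes (CPM after TMM scaling, linear axis from 0) in the 16 libraries. Points are libraries, horizontal lines are means and the bars beside them are the SD (n = 4). MXI1 and MNT rise in both lines, MXD4 goes from about 16.1 to 36.1 CPM in HT55 and stays near 39 CPM in SW948, and MGA falls in SW948.

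MYC itself (GRCh37 chr8:128747680-128755197, plus strand) stood at the same level in both lines without drug on the TMM scale. Its 4 DMSO libraries had 298, 297, 292 and 295 CPM in HT55 and 292, 287, 299 and 303 CPM in SW948. The groups overlapped, with a log2 difference between the lines of 0.00 (95% interval -0.07 to 0.08). With itraconazole the HT55 libraries had 453, 459, 268 and 341 CPM. Of these, 3 lay above every DMSO library and replicate 3 lay below all of them. The log2 fold change was 0.36 ± 0.15 (SE, n = 4 per group; edgeR adjusted p = 0.0574), which did not pass.

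In SW948 the treated libraries had 388, 333, 311 and 310 CPM of MYC, all above the 4 DMSO libraries. The log2 fold change of 0.15 ± 0.07 (SE, n = 4 per group; edgeR adjusted p = 0.0768) did not pass either, and its 95% interval ran from -0.01 to 0.31. The MYC result is close to the threshold and moves with the method. DESeq2 passed it in both lines (log2 fold change 0.37, adjusted p = 0.0360 in HT55, and 0.17, adjusted p = 0.0338 in SW948), while plain library totals gave 0.18 in HT55 (edgeR adjusted p = 0.235) and turned the direction in SW948 to -0.18 (edgeR adjusted p = 0.0767). Without HT55 itraconazole replicate 3, the HT55 value was 0.51 and passed (edgeR adjusted p = 0.000222). Without SW948 itraconazole replicate 1, the SW948 value was 0.09 (edgeR adjusted p = 0.165). The response of MYC was not shown to differ between the lines (interaction -0.18, 95% interval -0.54 to 0.18, edgeR adjusted p = 0.389).

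MAX (GRCh37 chr14:65472892-65569413, minus strand), the partner that MYC and the antagonists share, had similar levels in the 4 groups on the TMM scale. Its group means were 54.5 ± 1.91 CPM in HT55 DMSO, 51.9 ± 2.49 in HT55 itraconazole, 54.4 ± 2.14 in SW948 DMSO and 54.8 ± 6.44 in SW948 itraconazole (SD, n = 4 each). The 4 groups overlapped. The log2 fold change was -0.07 in HT55 (95% interval -0.22 to 0.07) and -0.03 in SW948 (95% interval -0.21 to 0.15), and neither passed (edgeR adjusted p = 0.368 and 0.787). MAX on plain library totals fell with the bulk of genes, by 0.24 in HT55 (edgeR adjusted p = 0.0188) and by 0.36 in SW948 (edgeR adjusted p = 0.000535) on the log2 scale. On those totals MAX also passed between the lines in DMSO.

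MXI1 (GRCh37 chr10:111967363-112047123, plus strand), a MAX-binding repressor named for its interaction with MAX, had the largest fold change of the 8 genes in HT55. Its HT55 DMSO libraries had 8.88, 10.2, 10.2 and 10.8 CPM, and the treated ones 52.3, 61.0, 19.9 and 35.7 CPM. All treated libraries were above all controls, and replicate 3 rose least. The log2 fold change was 2.07 ± 0.30 (SE, n = 4 per group; edgeR adjusted p = 0.000269), a 4.18-fold rise.

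SW948 carried more MXI1 to begin with. Its DMSO libraries had 46.5, 51.0, 49.5 and 50.2 CPM, 2.30 higher on the log2 scale than in HT55 (edgeR adjusted p = 4.62e-19), and its treated libraries had 132, 166, 174 and 149 CPM. The groups did not overlap, and the 3.08-fold rise had a log2 fold change of 1.62 ± 0.09 (SE, n = 4 per group; edgeR adjusted p = 9.43e-10). MXI1 in HT55 with drug (42.2 ± 18.2 CPM, SD, n = 4) thus overlapped the level of SW948 without it (49.3 ± 1.98 CPM, SD, n = 4). The responses of the lines did not pass the test of their difference (interaction -0.41, 95% interval -1.06 to 0.23, edgeR adjusted p = 0.268), but did without HT55 itraconazole replicate 3 (-0.67, edgeR adjusted p = 0.00449).

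MNT (GRCh37 chr17:2287367-2304398, minus strand), a widely expressed antagonist that restrains MYC in growing as well as resting cells, followed MXI1. In HT55 the controls had 44.1, 45.0, 50.9 and 46.3 CPM and the treated libraries 109, 118, 53.9 and 86.1 CPM. In SW948 the controls had 37.4, 38.3, 35.8 and 39.9 CPM and the treated libraries 124, 127, 126 and 125 CPM. No treated library overlapped a control in either line, although HT55 itraconazole replicate 3 lay just above the highest control. MNT rose 1.96-fold in HT55 (log2 0.97 ± 0.20, SE; edgeR adjusted p = 0.00215) and 3.24-fold in SW948 (log2 1.70 ± 0.06, SE; edgeR adjusted p = 5.34e-11). The rise was greater in SW948 by 0.75 on the log2 scale (95% interval 0.31 to 1.20, edgeR adjusted p = 0.00585).

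MXD1 (GRCh37 chr2:70124820-70170077, plus strand), a repressor typical of differentiating cells, also rose in both lines. The HT55 controls had 80.8, 80.6, 69.4 and 80.7 CPM and the treated libraries 109, 107, 79.9 and 118 CPM. Replicate 3 of the treated libraries lay within the range of the controls, and the other 3 lay above it. The 1.32-fold rise passed (log2 0.40 ± 0.11, SE; edgeR adjusted p = 0.0104), but not on plain library totals (0.23, edgeR adjusted p = 0.0635). In SW948 the controls had 47.1, 47.6, 42.0 and 48.9 CPM and the treated libraries 81.2, 125, 121 and 111 CPM, with no overlap. The 2.30-fold rise there (log2 1.20 ± 0.12, SE; edgeR adjusted p = 3.23e-07) was larger than in HT55 by 0.83 (edgeR adjusted p = 0.000488). MXD1 shares 237 exon bases on the same strand with SNRNP27, whose log2 fold changes of -0.14 and -0.09 did not pass.

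MXD4 (GRCh37 chr4:2249159-2263836, minus strand), the fourth MXD repressor, rose in HT55. The HT55 controls had 15.6, 15.5, 17.7 and 15.4 CPM and the treated libraries 36.3, 36.7, 35.1 and 36.3 CPM. All treated libraries, replicate 3 included, lay at about the same level and far above the controls. This 2.24-fold rise (log2 1.16 ± 0.08, SE; edgeR adjusted p = 4.84e-06) had the smallest adjusted p of the 8 genes in HT55. In SW948 the controls already had 39.9, 38.1, 41.6 and 37.8 CPM, and the treated libraries had 42.9, 36.5, 35.1 and 40.1 CPM. These groups overlapped, and the log2 fold change of -0.06 (95% interval -0.22 to 0.11, edgeR adjusted p = 0.531) did not pass. Plain library totals gave -0.38 there, which passed (edgeR adjusted p = 0.00281). The responses differed by -1.19 (SW948 minus HT55, edgeR adjusted p = 1.04e-07). The level of SW948 was 2.45-fold that of HT55 in DMSO (edgeR adjusted p = 1.81e-14), and in itraconazole the log2 difference was 0.11 (95% interval -0.11 to 0.32, edgeR adjusted p = 0.340).

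MGA (GRCh37 chr15:41913332-42065279, plus strand), the large scaffold that joins a MAX-binding region to PRC1.6, was the member that fell in SW948. Its SW948 controls had 40.3, 53.1, 40.0 and 42.7 CPM and the treated libraries 27.0, 18.8, 18.1 and 19.3 CPM. All treated libraries were below all controls, with replicate 1 the highest of them. The log2 fold change was -1.10 ± 0.13 (SE, n = 4 per group; edgeR adjusted p = 2.85e-06). In HT55 the group means were 71.0 ± 4.57 CPM with DMSO and 75.3 ± 2.57 with itraconazole (SD, n = 4), which overlapped and did not pass (0.08, 95% interval -0.07 to 0.22, edgeR adjusted p = 0.337). This value was -0.09 on plain library totals. The difference between the responses passed (-1.15, 95% interval -1.48 to -0.83, edgeR adjusted p = 5.63e-06).

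MXD3 (GRCh37 chr5:176728462-176739758, minus strand), the MXD member linked to proliferating rather than differentiating cells, was the least abundant gene by CPM, with 26 to 85 counts per library. In HT55 it had 5.96, 8.75, 7.96 and 9.13 CPM in the controls and 5.23, 4.96, 7.23 and 3.23 CPM in the treated libraries. The groups overlapped through 1 library of each. The fall of 0.61 on the log2 scale (SE 0.23, edgeR adjusted p = 0.0447) passed narrowly, and lost the call when any 1 of 6 of the 8 libraries was left out. In SW948 the means were 5.58 ± 0.50 and 5.07 ± 0.69 CPM (SD, n = 4), and the log2 fold change of -0.16 did not pass (95% interval -0.48 to 0.16), while the plain-total value of -0.49 did (edgeR adjusted p = 0.0134). MXD3 shares 926 exon bases with RAB24 on the same strand and 1148 with PRELID1 on the other. Since the strand setting of the counting is not given in the sources used here, its values are uncertain.

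**Figure D2:**
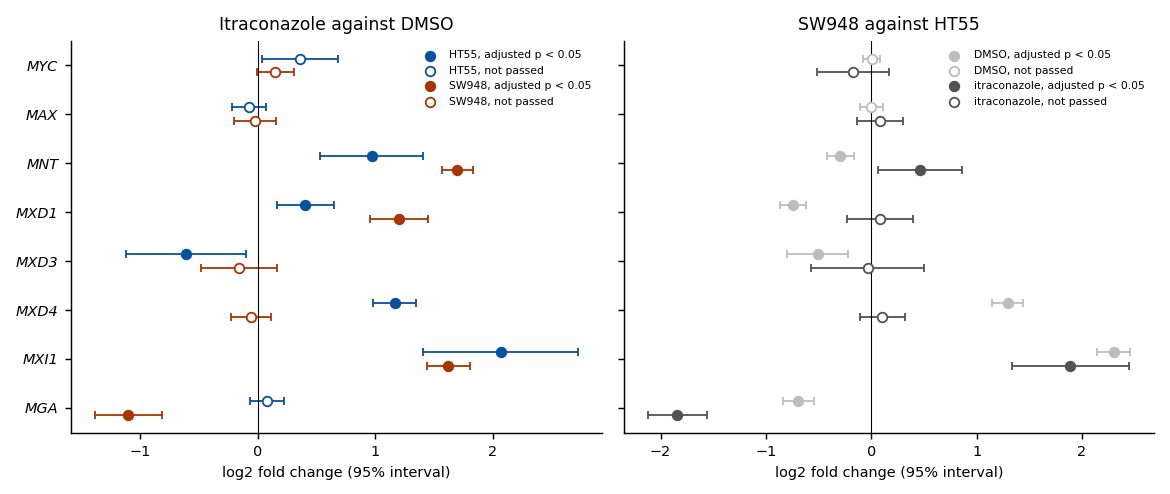
Log2 fold change with 95% interval for the 8 genes, on the left for itraconazole against DMSO in each line and on the right for SW948 against HT55 in each treatment. Filled points passed an edgeR adjusted p of 0.05. MXD4 and MGA part between the lines on the left. On the right MXD1, MXD3 and MXD4 differ between the lines in DMSO but lie near 0 in itraconazole, MXD3 with a wide interval.

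Between the lines without drug, 6 of the 8 genes passed the test, where 84.2% of 12820 genes did. SW948 had more MXI1 and MXD4, and less MXD1 (-0.74, edgeR adjusted p = 2.40e-11), MGA (-0.69, edgeR adjusted p = 2.68e-09), MXD3 (-0.51, edgeR adjusted p = 0.00197) and MNT (-0.30, edgeR adjusted p = 0.000109). With plain library totals the MNT difference was lost (-0.10, edgeR adjusted p = 0.119) and MYC passed (0.20, edgeR adjusted p = 3.40e-05). MAX passed as well on that scale, so that 7 of the 8 genes did, where 10860 of 12820 genes passed. With itraconazole 3 of the 8 passed, where 76.6% of 12353 genes did. MXI1 was 3.71-fold higher in SW948 (edgeR adjusted p = 2.39e-05), MGA was lower by 1.84 on the log2 scale (edgeR adjusted p = 8.61e-08), and MNT was higher by 0.46 (edgeR adjusted p = 0.0354). That MNT call was lost in 4 of the 8 fits that left out 1 library, the smallest value being 0.28. MXD1 and MXD4, which differed in DMSO, had 95% intervals of -0.23 to 0.40 and -0.11 to 0.32 with itraconazole. MXD3, which also differed in DMSO, had a wider interval of -0.568 to 0.505. The response itself differed between the lines for 4 of the 8 genes (MNT, MXD1, MXD4 and MGA), where 53.9% of 13249 genes passed that test. The count of members was 7 without HT55 itraconazole replicate 3, when MYC, MXD3 and MXI1 passed as well. The share of all genes passing in that fit is not given here, so the rise is not read as particular to the network.

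Per kilobase of exon, MYC was the most abundant member in every group, at 48.4 CPM per kb in HT55 DMSO, 62.3 in HT55 itraconazole, 48.4 in SW948 DMSO and 54.9 in SW948 itraconazole. The order below it depended on line and treatment. In HT55 DMSO it was MXD1 (12.3), MAX (8.71), MNT (5.35), MGA (3.54), MXD4 (2.34), then MXI1 (1.70) and MXD3 (1.68), and only the last pair overlapped between libraries. In HT55 itraconazole MXD1 (16.3), MNT (10.5), MAX (8.29), MXI1 (7.15) and MXD4 (5.25) followed, each of the first 4 overlapping the next. MGA (3.75) came after them but overlapped MXI1, which was lower than MGA in replicate 3 (3.37 against 3.56), and MXD3 (1.09) was the lowest. In SW948 DMSO MAX (8.69) and MXI1 (8.34) overlapped at the top of the rest, above MXD1 (7.31), MXD4 (5.73), MNT (4.35), MGA (2.19) and MXD3 (1.18). In SW948 itraconazole MXI1 (26.3) was second to MYC, above MXD1 (17.2) and MNT (14.4), which overlapped, then MAX (8.76) and MXD4 (5.62), with MXD3 (1.07) and MGA (1.04) overlapping at the bottom. With the longest transcript as the length, MXD1 came after MAX in HT55 DMSO, after MNT in HT55 itraconazole and in SW948 itraconazole, and after MXD4 in SW948 DMSO, so the order of close neighbours depends on the length used.

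Set against MYC within each library, the 6 antagonists together had 0.56 ± 0.01 of the level of MYC per kb in HT55 DMSO and 0.72 ± 0.06 in HT55 itraconazole (SD, n = 4). The treated HT55 libraries had 0.658, 0.677, 0.737 and 0.794, all above the highest control at 0.569. In SW948 the ratio was 0.60 ± 0.02 with DMSO and 1.21 ± 0.20 with itraconazole (SD, n = 4). Its treated libraries had 0.918, 1.28, 1.38 and 1.28, so that in 3 of the 4 the summed antagonists exceeded MYC per kb of exon. A ratio within a library does not depend on the scaling of the libraries, and these ratios are descriptions without a test. It does depend on the gene lengths used. With the longest transcript as the length, the means were 0.484 and 0.645 in HT55, and 0.567 and 1.15 ± 0.18 (SD, n = 4) in SW948. MYC to MAX was 5.56 ± 0.17 and 7.55 ± 1.99 in HT55, and 5.57 ± 0.13 and 6.38 ± 1.38 in SW948 (SD, n = 4), and the treated libraries overlapped the controls in both lines. The antagonists to MAX went from 3.09 ± 0.09 to 5.34 ± 1.12 in HT55 and from 3.35 ± 0.21 to 7.53 ± 0.42 in SW948 (SD, n = 4), without overlap in either line.

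The make-up of the antagonists shifted as well. MXI1 was 6.31% of their summed level per kb in HT55 DMSO and 15.6% with itraconazole, and 28.7% and 39.9% in SW948. MXD1 was 45.6% and 37.3% in HT55, and 25.1% and 26.1% in SW948. MNT made up 19.9% and 23.5% in HT55, and 14.9% and 22.1% in SW948. MXD4 went from 8.72% to 12.3% in HT55 but from 19.7% to 8.66% in SW948, where its level did not pass the test and MXI1, MNT and MXD1 rose. MGA went from 7.52% to 1.61% in SW948. The ratio of MXI1 to MGA spanned the widest range, from 0.48 ± 0.06 in HT55 DMSO through 1.89 ± 0.79 and 3.85 ± 0.41 to 26.4 ± 7.01 in SW948 itraconazole (SD, n = 4).

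**Figure D3:**
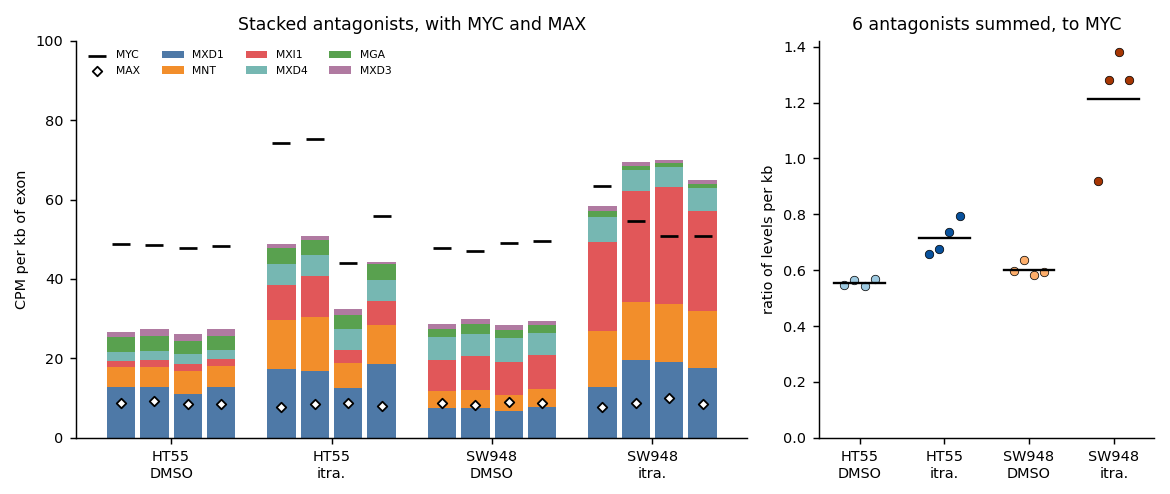
Left, stacked bars of the 6 antagonists per kb of exon in each of the 16 libraries (replicates 1 to 4 from left to right), with MYC as a line and MAX as a diamond. Right, the summed antagonists divided by MYC in each library, with group means. The ratio lies between 0.544 and 0.636 in DMSO, between 0.658 and 0.794 in HT55 itraconazole and between 0.918 and 1.38 in SW948 itraconazole.

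Over the 16 libraries, with log2 CPM centred within each line, MNT was most like MXI1 among the 8 genes (Pearson r 0.93) and MXD1 most like MNT (r 0.93). MYC was most like MXI1 (r 0.77), though on plain library totals it was most like MXD4 (r 0.46). The highest r of MAX was 0.16, with MXD3, and on plain library totals it was 0.69, with an r of -0.94 to MNT. Among protein coding genes whose log2 CPM averaged 3 or more, those most like MYC were TNPO2 (r 0.944), a nuclear import receptor, AKR7A3 (r 0.944), an aldo-keto reductase, TNFRSF10A (r 0.941), a death receptor for TRAIL, PRKAB1 (r 0.936), a subunit of AMP-activated kinase, and STAT5B (r 0.927), a signal-activated transcription factor. On plain library totals 4 of these 5 remained. All points share the treatment contrast and the library scaling, so these values are descriptions.

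The paralogs of MYC moved differently from it. MYCL fell in HT55 from 71.8 ± 1.50 to 33.1 ± 3.18 CPM (SD, n = 4; log2 -1.12, edgeR adjusted p = 5.37e-06), and in SW948 from 9.28 ± 2.07 to 5.50 ± 1.15 CPM (log2 -0.78, edgeR adjusted p = 0.00203), where the libraries overlapped. MYCN fell in HT55 from 31.9 ± 2.83 to 16.8 ± 3.97 CPM (log2 -0.92, edgeR adjusted p = 0.000640), and in SW948 it had only 43 counts over the 4 DMSO libraries and 22 over the 4 treated ones and was not tested. MLX, the MAX-like partner of a parallel network that responds to glucose, rose by 0.31 in HT55 and by 0.80 in SW948. Its partner MLXIP rose in HT55 (0.35) and MLXIPL fell there (-0.73), and neither passed in SW948 (0.14 and -0.02). Plain library totals ended the HT55 calls of MLX (0.15, edgeR adjusted p = 0.143) and MLXIP (0.19, edgeR adjusted p = 0.0570), and gave falls in SW948 for MLXIP (-0.20, edgeR adjusted p = 0.0293) and MLXIPL (-0.35, edgeR adjusted p = 0.0123).

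The cofactor lists that follow are read against the shares over all genes, which were 27.5% for a rise and 26.5% for a fall in HT55, and 38.9% and 41.3% in SW948. Counts on plain library totals are read against that scale, where 2279 genes rose and 4710 fell of 12133 in HT55. In SW948 3145 rose and 6832 fell of 12505. Among 9 MYC-binding coactivators tested in HT55, 2 rose and 3 fell, while SW948 had 4 of each. TRRAP, the scaffold of the acetyltransferase complexes that MYC recruits, rose in HT55 from 99.2 ± 5.63 to 158 ± 16.6 CPM (log2 0.67, edgeR adjusted p = 0.000112), and by 0.51 in SW948, where plain library totals ended the call (0.18, edgeR adjusted p = 0.0728). RUVBL1, an ATPase of the same complexes, fell by 0.80 in HT55 and by 1.78 in SW948 on the log2 scale (edgeR adjusted p = 7.16e-05 and 2.51e-09). WDR5, a chromatin docking site for MYC, fell in SW948 (-0.60). The list medians were -0.13 in HT55 and 0.15 in SW948, and on plain library totals -0.30 and -0.18, with no coactivator rising in SW948.

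The corepressor genes, SIN3 subunits among them, through which MNT and the MXD proteins repress, had 2 genes of 9 that rose and 2 that fell in HT55. In SW948 the counts were 4 and 4. With plain library totals they were 1 and 6 in HT55, and 3 and 5 in SW948. The paired SIN3 scaffolds went opposite ways. On the log2 scale SIN3A fell by 0.44 in HT55 and by 0.29 in SW948, whereas SIN3B rose in both (0.34 and 1.10). In HT55 the libraries of SIN3B overlapped, and it did not pass on plain library totals (0.17, edgeR adjusted p = 0.158).

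Partners of MGA in PRC1.6 included 2 genes of 9 that rose and 5 that fell in HT55, and 3 and 3 in SW948. Plain library totals gave 2 and 6, and 3 and 5. TFDP1, the dimer partner of E2F6, fell from 389 ± 16.1 to 256 ± 66.7 CPM in HT55 and from 265 ± 11.3 to 96.0 ± 4.29 CPM in SW948 (log2 -0.60 and -1.49, edgeR adjusted p = 0.00572 and 1.20e-10). RYBP, a linker protein of the complex, rose in both lines (0.93 and 0.90), and the ubiquitin ligase RNF2 rose in both (0.51 and 1.07).

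Of 11 stability genes, 3 rose and 4 fell in HT55, with 4 of each in SW948. The counts on plain library totals were 1 and 5 in HT55, and 1 and 6 in SW948. SKP2, a ubiquitin ligase subunit that targets MYC, fell from 70.0 ± 2.69 to 35.8 ± 11.9 CPM in HT55 and from 45.8 ± 1.57 to 7.87 ± 1.46 CPM in SW948 (log2 -0.97 and -2.57, edgeR adjusted p = 0.00155 and 1.68e-10). CIP2A, an inhibitor of the phosphatase that destabilises MYC, fell in both (-0.51 and -1.09). AURKA, a kinase that can stabilise MYC proteins, rose in SW948 (1.19, edgeR adjusted p = 1.50e-08), and in HT55 its value was 0.17 with libraries that overlapped (0.36, edgeR adjusted p = 0.00944, without itraconazole replicate 3). MYC protein was not measured in these libraries.

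Among 12 factors acting at the MYC gene, 2 rose in HT55 and 5 in SW948, and 1 and 3 fell. BCL9L, a coactivator of beta-catenin, rose from 109 ± 3.43 to 160 ± 6.72 CPM in HT55 and from 113 ± 4.18 to 402 ± 63.7 CPM in SW948 (log2 0.54 and 1.80). TCF7L2, the main Wnt transcription factor of the colon, rose in HT55 (0.40, edgeR adjusted p = 0.00185), with 0.17 in SW948 that did not pass and was -0.17 on plain library totals. PVT1, a noncoding RNA gene beside MYC, rose in SW948 from 13.2 ± 0.98 to 44.7 ± 9.78 CPM (log2 1.73, edgeR adjusted p = 7.48e-08), and in HT55 its 6.18 ± 0.48 and 8.27 ± 2.16 CPM overlapped and did not pass (0.41, but 0.53 and edgeR adjusted p = 0.0164 without itraconazole replicate 3). CASC19, the other of the 2 such genes tested, fell in SW948 from 1.67 ± 0.56 to 0.69 ± 0.31 CPM (log2 -1.26, edgeR adjusted p = 0.00492). It did not pass in HT55 (-0.16, edgeR adjusted p = 0.553). On plain library totals 6 of the 12 factors fell in HT55 and 5 in SW948.

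Genes that MYC is known to activate or repress were examined next. Whether their changes came from MYC or its antagonists was not tested. Of 40 MYC-activated genes 39 were tested in each line. In HT55 18 fell and 2 rose, with a median log2 fold change of -0.28, and in SW948 24 fell and 11 rose, with a median of -0.33. Over all genes 26.5% fell in HT55 and 41.3% in SW948, with medians of -0.02 and -0.03. On plain library totals 24 fell in HT55 and 27 in SW948, where 4710 of 12133 and 6832 of 12505 genes fell. The list medians on that scale were -0.446 and -0.655, against -0.181 and -0.354 over all genes. Without itraconazole replicate 3, 19 fell and 5 rose in HT55, with a median of -0.245. Of the 39 genes, 24 had log2 fold changes below 0 in both lines. The share of all genes below 0 in both lines is not given here, so this count is only a description.

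The activated genes with the largest falls were ODC1 and NOP56 in HT55 and SLC19A1 and MRTO4 in SW948. ODC1, the rate-limiting enzyme of polyamine synthesis, fell from 392 ± 5.92 to 180 ± 22.6 CPM in HT55 (log2 -1.13, edgeR adjusted p = 7.65e-06), and by 0.61 on the log2 scale in SW948. NOP56, a core protein of box C/D snoRNPs, fell in both lines (-1.12 and -1.71, edgeR adjusted p = 6.88e-05 and 8.12e-11), and so did MRTO4, a ribosome assembly factor (-0.78 and -2.10, edgeR adjusted p = 1.72e-05 and 4.22e-09). SLC19A1, the reduced folate carrier, fell in SW948 from 23.2 ± 1.08 to 4.08 ± 1.42 CPM (log2 -2.52, edgeR adjusted p = 8.67e-09), with -0.09 and overlapping libraries in HT55. Not all activated genes fell. LDHA, for lactate production, and TFRC, the transferrin receptor, rose in both lines, and NPM1, a nucleolar chaperone, rose in SW948 (0.85) with -0.10 in HT55. TFRC did not pass in SW948 on plain library totals (0.13, edgeR adjusted p = 0.0875). These 3 were chosen after their values were seen.

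The canonical E-box was in the promoters of 19 of the 31 MYC-activated genes with a RefSeq entry (61.3%, against 8.77% of all genes). The list was written from general knowledge of MYC targets, which can include their E-boxes, so this share is only a description. Of the 18 such genes tested in HT55, 9 fell and 1 rose, and of the 12 without it 4 fell and 1 rose. In SW948 10 of 18 fell and 8 rose with an E-box, and 7 of 12 fell and 2 rose without. The medians were -0.21 and -0.12 in HT55 and -0.25 and -0.27 in SW948. No difference between genes with and without the E-box was tested.

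Of 9 genes that MYC is known to repress, 7 rose and 0 fell in HT55 (median 0.87). In SW948 the counts were 5 and 3 (median 0.78). Over all genes the share that rose was 27.5% in HT55 and 38.9% in SW948, where 41.3% fell. With plain library totals the counts were 6 and 1 in HT55, and 5 and 3 in SW948. On that scale 2279 of 12133 genes rose and 4710 fell in HT55, and 3145 of 12505 rose and 6832 fell in SW948. NDRG1, a stress and differentiation gene, rose from 30.9 ± 2.75 to 135 ± 29.4 CPM in HT55 and from 56.8 ± 1.95 to 316 ± 49.1 CPM in SW948 (log2 2.12 and 2.44, edgeR adjusted p = 4.80e-06 and 1.36e-10). GADD45B, a growth arrest gene, rose in both lines (1.02 and 3.09, edgeR adjusted p = 0.0123 and 1.06e-07), with libraries that overlapped in HT55. THBS1, the secreted angiogenesis inhibitor thrombospondin, rose in HT55 from 83.6 ± 6.99 to 366 ± 105 CPM (log2 2.12, edgeR adjusted p = 1.95e-05) but fell in SW948 from 33.0 ± 1.45 to 22.8 ± 5.35 CPM (log2 -0.57, edgeR adjusted p = 0.00126).

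**Figure D4:**
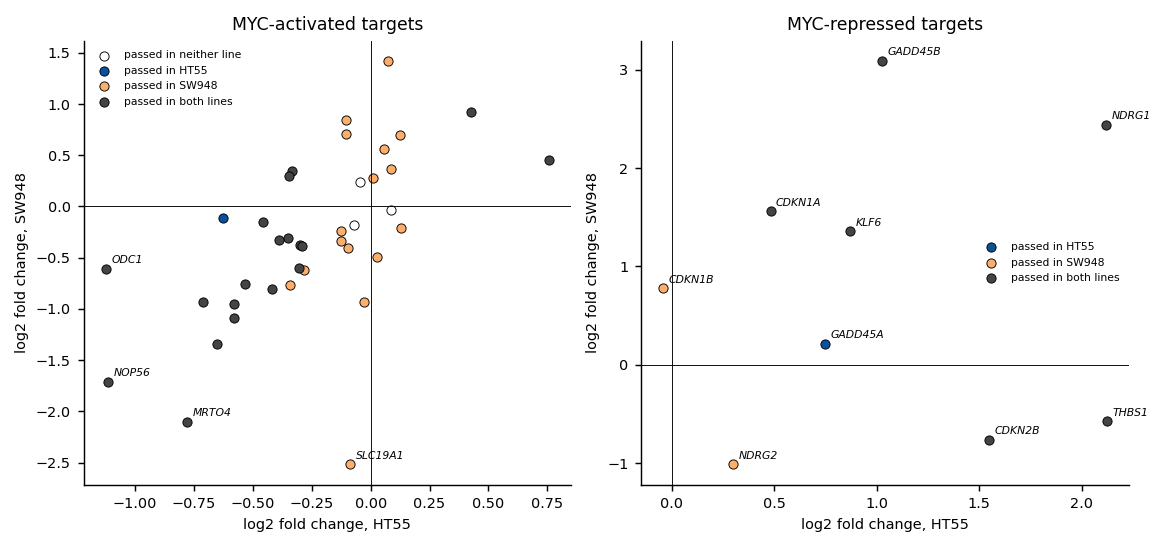
Log2 fold change with itraconazole in HT55 (horizontal) and SW948 (vertical) for genes that MYC is known to activate (left, 39 genes) and to repress (right, 9 genes). Points are coloured by the line in which they passed an edgeR adjusted p of 0.05. Of the activated genes 24 lie in the lower left, and the share of all genes there is not given. Of the repressed genes 3 lie in the lower right. They are THBS1 and CDKN2B, which passed in opposite directions in the lines, and NDRG2, which fell in SW948 and did not pass in HT55.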

How the data were processed

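RNA from HT55 and SW948 cells was sequenced in 16 libraries. The authors deposited raw read counts per Ensembl gene, 1 file a library. Per the labels, TopHat, HTSeq and DESeq were used with hg19, and neither versions, annotation release nor strand setting are given in the sources used here. Reads aligned to several places (21.99 to 27.9% of each total) were set apart by the 5 total rows and stay out of library sizes, so genes with near-identical copies lose reads. Without molecular identifiers, counts are not independent molecules.

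Symbols, lengths and coordinates came from GENCODE on GRCh37. Symbols matched 47098 identifiers, holding 97.8% of counts. Each comparison used edgeR 4.0.16 (R 4.3.3): TMM, filterByExpr, quasi-likelihood test and Benjamini-Hochberg adjustment over all genes tested, threshold 0.05. Each line was fitted on its 8 libraries, and the interaction on 16. SE came from the fold change and F. CPM used TMM over 16 libraries, and log2 CPM a prior count of 2. No 2 libraries were identical, and the scripts were tested on simulated data.

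Named genes were the 8 members, the paralogs MYCN and MYCL, genes overlapping a member, the 5 genes most like MYC, and per list and line at most 2 genes with adjusted p under 0.05, mean log2 CPM of at least 3 and no overlap, those with the largest change; 2 genes that this rule names are not reported here. Other genes were named after their values were seen. The members and lists, written from general knowledge, were chosen with earlier results of these data known. Alternatives were DESeq2 1.42.0 (its test or its size factors), plain library totals, no low-count filter, adjusted p under 0.01, a replicate block, 1 fit on all 16 libraries, the longest transcript as length, and leaving out each library. Lists under other scalings and without HT55 itraconazole replicate 3 were added after seeing the data.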

Additional observations from a re-analysis of the deposited data

Results flagged for a closer look

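In 3 of the 40 groups of 4 libraries examined, 1 library lay apart from the other 3 by more than Dixon's 95% limit for 4 values (gap over range), where chance gives about 2. MXD1 in HT55 DMSO had its lowest value in replicate 3 (69.4 CPM against 80.6 to 80.8, gap over range 0.983), and MXD4 had its highest value in the same library (17.7 CPM against 15.4 to 15.6, 0.925). MGA in SW948 itraconazole was highest in replicate 1 (27.0 CPM against 18.1 to 19.3, 0.860), which was also the treated SW948 library with the most MYC (388 CPM) and the least MXD1 (81.2 CPM).

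The response to itraconazole differed between the lines for 4 of the 8 genes in the edgeR test of the interaction (SW948 minus HT55, log2). That test passed 53.9% of 13249 genes, so the count is near the share over all genes. The difference was 0.75 for MNT and 0.83 for MXD1, both of which rose in both lines. It was -1.19 for MXD4, which rose in HT55, and -1.15 for MGA, which fell in SW948. These 4 passed in all 16 fits that left out 1 library.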

How the results depend on the processing

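Of 843 values recomputed under alternatives, 775 kept their direction and their side of the threshold or stayed within the spread. In HT55 3 of the 8 genes passed at an adjusted p under 0.01, where 4566 of 12133 genes did, instead of 5 at 0.05. With plain library totals 7 of the 8 genes passed in SW948 instead of 4, where 9977 of 12505 genes passed. On that scale MYC in SW948 turned to -0.176, MGA in HT55 to -0.0881 and the MAX interaction to -0.121. Plain totals moved the share of called genes that rose from 51.0% to 32.6% in HT55, from 48.5% to 31.5% in SW948, from 46.1% to 31.8% for the interaction and from 50.5% to 60.2% between the lines in DMSO. In 1 fit on all 16 libraries MAX in SW948 was 0.00748 and MAX between the lines in DMSO -0.00229. With DESeq2's test and its size factors, the line difference in DMSO was -0.00025 and -0.00036 for MYC and -0.00263 and -0.00255 for MAX. The cause was not tested.

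Leaving out 1 library, the number of genes passing the interaction ran from 4 to 7 (7 without HT55 itraconazole replicate 3). Values crossing 0 were MAX in SW948 (-0.0981 to 0.0508), the MAX interaction (-0.000983 to 0.141), MYC (-0.00583 to 0.0287) and MAX (-0.0187 to 0.0381) between the lines in DMSO, and MXD1 (-0.0141 to 0.229) and MXD3 (-0.207 to 0.193) between the lines in itraconazole, none of which passed in any of these fits. Without HT55 itraconazole replicate 3, MYC also differed between the lines in itraconazole (-0.305, adjusted p = 0.0337, edgeR). MYC in SW948 passed without itraconazole replicate 3 or 4.

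Equal replicate numbers did not consistently pair the libraries (correlation of deviations -0.0307 to 0.189 in HT55 and -0.00333 to 0.202 in SW948, where 1 and 2 of 4 libraries were most like their own number). Replicate 3 had the highest of these values in both lines and was most like its own number. A replicate block changed none of the calls of the 8 genes. It gave 6300 called genes instead of 6553 in HT55 and 9973 instead of 10030 in SW948, and turned MXD3 between the lines in itraconazole to 0.00656. Depth limits MXD3 most.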
